A study of Mus musculus with 9 samples.

Results

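The genes described here are 41 genes of MHC class I and class II antigen presentation, taken by symbol from a table of 53647 mouse genes counted in 9 RNA samples of Hepa 1-6 cells, a mouse liver hepatoma line. Of these 41 genes, 31 had enough counts to be tested, as had 13661 genes of the whole table. The samples form 3 groups of 3: cells with Usp5 knocked out, cells with Ythdf1 knocked out, and cells that carried a control guide. USP5 is a deubiquitinase and YTHDF1 binds N6-methyladenosine in mRNA, and the study asked which immune genes the loss of either protein changes alike. No agent was given to any group. Per the labels' protocols, Usp5 was cut with a lentiviral CRISPR vector and Ythdf1 with CRISPR/Cas9 plasmids that also carry EGFP, so the target and the way it was delivered cannot be told apart. The knockout lines were single-cell clones picked by immunoblot; whether the 3 samples of a group are 1 clone or several is not stated, nor is the vector of the control guide. Control and knockout differences may therefore include any difference between clones.

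Usp5 transcripts measured 123, 113 and 110 CPM (counts scaled to the effective library size) in Usp5 knockout cells and 234, 224 and 184 CPM in control cells. Ythdf1 transcripts measured 49.2, 45.7 and 49.9 CPM in Ythdf1 knockout cells and 190, 181 and 195 CPM in control cells. The targeted transcript was thus lowest in the cells labelled with its knockout, with no overlap with the control cells. The 9 libraries held between 24760877 and 42989715 counts. Their log2 CPM correlated at 0.983 to 0.995 within groups and at 0.951 to 0.976 between groups, across all tested genes, which are not independent replicates. Control replicate 3 and Ythdf1 knockout replicate 2 were low in the class I genes within their groups. Of 20 tested class I genes 16 were lower in each than the mean of the other libraries of its group, with a median of -0.23 on the log2 scale in Ythdf1 knockout replicate 2 (0.00 over all genes) and -0.39 in control replicate 3 (0.02 over all genes). The mitochondrial share of control replicate 3 was 5.91% of counts, against 2.33% and 2.32% in the other controls. Hepatocyte and hepatoma markers were present in all libraries: the 10 markers summed to 3150 to 3530 CPM in Usp5 knockout cells, 4100 to 4340 CPM in Ythdf1 knockout cells and 2670 to 2730 CPM in control cells. Of these 10 markers, 3 were called higher in Usp5 knockout and 9 in Ythdf1 knockout cells by edgeR. The 6 bile duct markers, 5 of them tested, summed to 415 to 496 CPM in Usp5 knockout cells, 310 to 334 CPM in Ythdf1 knockout cells and 233 to 306 CPM in control cells, with 4 called higher in Usp5 knockout and 2 in Ythdf1 knockout cells. Among all tested genes, 9.96% were called higher in Usp5 knockout and 23.7% in Ythdf1 knockout cells, and both marker lists are small to set against those shares. The part of these marker shifts in the changes of the antigen presentation genes was not tested.

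MHC class I molecules show peptides from inside the cell to CD8+ T cells and are read by natural killer cells. A heavy chain pairs with the light chain beta-2-microglobulin and is loaded in the endoplasmic reticulum with peptides that the immunoproteasome cuts, TAP pumps in and tapasin helps to select. Class II molecules show peptides from the endolysosome to CD4+ T cells; they are made mainly by professional antigen-presenting cells, where the invariant chain CD74 guards the groove and the transactivator CIITA switches the genes on. Both classes share promoter factors of the RFX complex, and class I genes have NLRC5 as their own transactivator. Liver parenchymal cells normally make class I at a low level, and interferon-gamma raises it.

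The promoters of 6 class I genes are shown because they carry letters of the elements through which these genes are known to be induced, and because genes with the same letters were found at very different levels. They come from RefSeq with the build GRCm38.p6, run from 250 bases before to 50 bases after a gene's start, and are written 5′ to 3′ on the gene's own strand. Capitals mark matches, on either strand, to the CCAAT box (CCAAT, or ATTGG in reverse), the TGACG core of the X2 box (TGACG, or CGTCA in reverse), the interferon regulatory factor repeat (GAAA, any 2 bases, then GAAA, or TTTC, any 2 bases and TTTC in reverse) and the core of the class I kB site (GGATTCC, or GGAATCC in reverse). The printed matches do not overlap each other.
H2-D1, chr17:35262844-35263143, + strand: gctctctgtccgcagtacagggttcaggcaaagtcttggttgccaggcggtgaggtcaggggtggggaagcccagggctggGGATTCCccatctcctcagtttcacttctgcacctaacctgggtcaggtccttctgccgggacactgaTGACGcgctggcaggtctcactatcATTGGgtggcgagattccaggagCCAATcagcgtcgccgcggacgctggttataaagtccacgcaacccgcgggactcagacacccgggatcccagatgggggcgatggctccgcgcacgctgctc
H2-K1, chr17:34000298-34000597, - strand: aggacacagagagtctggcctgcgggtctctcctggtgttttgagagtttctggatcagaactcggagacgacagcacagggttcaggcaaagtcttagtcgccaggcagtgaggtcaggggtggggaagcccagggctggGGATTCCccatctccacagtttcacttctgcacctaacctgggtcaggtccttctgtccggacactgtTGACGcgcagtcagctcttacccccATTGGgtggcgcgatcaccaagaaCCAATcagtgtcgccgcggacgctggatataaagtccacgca
H2-Q4, chr17:35379367-35379666, + strand: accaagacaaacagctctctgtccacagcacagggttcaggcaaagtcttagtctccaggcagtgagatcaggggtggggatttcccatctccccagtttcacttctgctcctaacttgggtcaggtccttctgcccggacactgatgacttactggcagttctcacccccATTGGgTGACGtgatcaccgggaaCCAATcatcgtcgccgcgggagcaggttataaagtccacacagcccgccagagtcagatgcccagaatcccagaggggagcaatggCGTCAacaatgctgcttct
H2-Q6, chr17:35424600-35424899, + strand: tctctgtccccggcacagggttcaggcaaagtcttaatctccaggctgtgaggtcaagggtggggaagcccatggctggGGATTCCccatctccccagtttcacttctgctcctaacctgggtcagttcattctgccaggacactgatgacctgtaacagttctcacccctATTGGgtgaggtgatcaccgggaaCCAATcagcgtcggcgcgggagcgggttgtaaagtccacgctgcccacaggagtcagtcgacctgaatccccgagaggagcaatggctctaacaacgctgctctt
H2-T23, chr17:36032652-36032951, - strand: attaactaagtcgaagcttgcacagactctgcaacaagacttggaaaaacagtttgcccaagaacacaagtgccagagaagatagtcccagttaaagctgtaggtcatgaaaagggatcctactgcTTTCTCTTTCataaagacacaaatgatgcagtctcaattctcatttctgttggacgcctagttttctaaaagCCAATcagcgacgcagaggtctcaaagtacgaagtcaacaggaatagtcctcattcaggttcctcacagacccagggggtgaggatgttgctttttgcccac
B2m, chr2:122147437-122147736, + strand: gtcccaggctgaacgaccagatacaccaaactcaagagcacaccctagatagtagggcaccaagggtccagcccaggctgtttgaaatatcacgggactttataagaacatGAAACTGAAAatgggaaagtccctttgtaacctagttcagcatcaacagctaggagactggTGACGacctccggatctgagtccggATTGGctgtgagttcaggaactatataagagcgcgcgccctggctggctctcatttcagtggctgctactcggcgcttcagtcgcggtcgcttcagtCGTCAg

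The kB core letters stood in 1245 of 32851 RefSeq promoters of this length (3.79%), and in 4 of the 30 antigen presentation genes matched by symbol (13.3%), which were the heavy chain genes H2-D1, H2-K1, H2-Q6 and H2-Q7. CCAAT stood in 37.4% of all promoters and in the promoters of 20 of these 30 genes (66.7%). TGACG stood in 20.8% of all promoters and in those of 12 genes (40%), and the interferon repeat in 3.44% of all promoters and in those of 6 genes (20%). These matches describe letters only and draw no line to binding. Only exact matches to the stated letters were searched for. Variants of an element stay in lower case and uncounted, so an unmarked promoter may still hold one.

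H2-D1 dominated the class I heavy chains of these cells. Of the 13 heavy chain genes, 8 passed the filter on low counts: the classical H2-D1 and the non-classical H2-Q1, H2-Q4, H2-T10, H2-T22, H2-T23, H2-T24 and H2-M3. The 5 that were too low were H2-K1, H2-Q2, H2-Q6, H2-Q7 and H2-Q10. Levels per length, as TPM from the counts and the deposited gene lengths, ordered the expressed chains as follows in control cells (mean ± SD, n = 3). H2-D1 stood first at 481 ± 119 TPM. H2-Q4 at 39.8 ± 7.20 TPM, H2-T22 at 36.3 ± 8.66 TPM and H2-T23 at 29.1 ± 6.51 TPM followed. Their SD ranges overlapped, and they kept this order in each control library. H2-Q1 at 6.84 ± 1.45 TPM and H2-M3 at 4.39 ± 2.31 TPM came next. Their SD ranges also overlapped, and H2-Q1 was the higher in each control library. H2-T24 at 1.90 ± 0.274 TPM and H2-T10 at 1.14 ± 0.272 TPM were last. Genes that pass the filter only in the group where they are high had to differ, so counts over the tested genes do not stand for all 41.

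H2-K1, the second classical heavy chain gene of this genome, was close to silent. It had 0, 0 and 1 counts in Usp5 knockout cells, 1, 0 and 2 counts in Ythdf1 knockout cells and 0, 0 and 0 counts in control cells. H2-D1 had 146894 counts over the same 9 libraries. A count of 0 allows up to 3 counts in a library, and both knockout groups were at or under that floor, so no fold is given. Most of H2-K1 can be told from other genes: 77.2% of its 31-base words occur in no other gene of the GENCODE vM21 transcripts, and 11.1% also occur in H2-D1. Of its neighbours in the gene order, H2-K2 had 296 counts over all libraries and Ring1 had 3015 counts. The promoter letters of H2-K1 and H2-D1 printed above hold the same kB, X2 and CCAAT matches in the same order.

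The other heavy chains under the filter had between 0 and 30 counts over the 9 libraries. H2-Q6, whose promoter also holds the kB letters, had 30 counts in all, with 2, 6 and 4 in Usp5 knockout cells, 1, 1 and 1 in Ythdf1 knockout cells and 5, 4 and 6 in control cells. The ratio of Ythdf1 knockout to control was 0.284 with an exact 95% interval of 0.0526 to 1.00, which covers counting error only. H2-Q10, a Qa chain that mouse liver is known to secrete, had 6, 0 and 1 counts in Usp5 knockout cells and none in the other groups. Set against a floor of 3 counts over the control group, the 7 counts give a 2.71-fold ratio of Usp5 knockout to control cells. That value takes the 7 counts as exact, so it is not a lower bound, and 6 of them came from 1 library. H2-Q2 had 1 count and H2-Q7 had 0 in the 9 libraries.

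**Figure D1:**
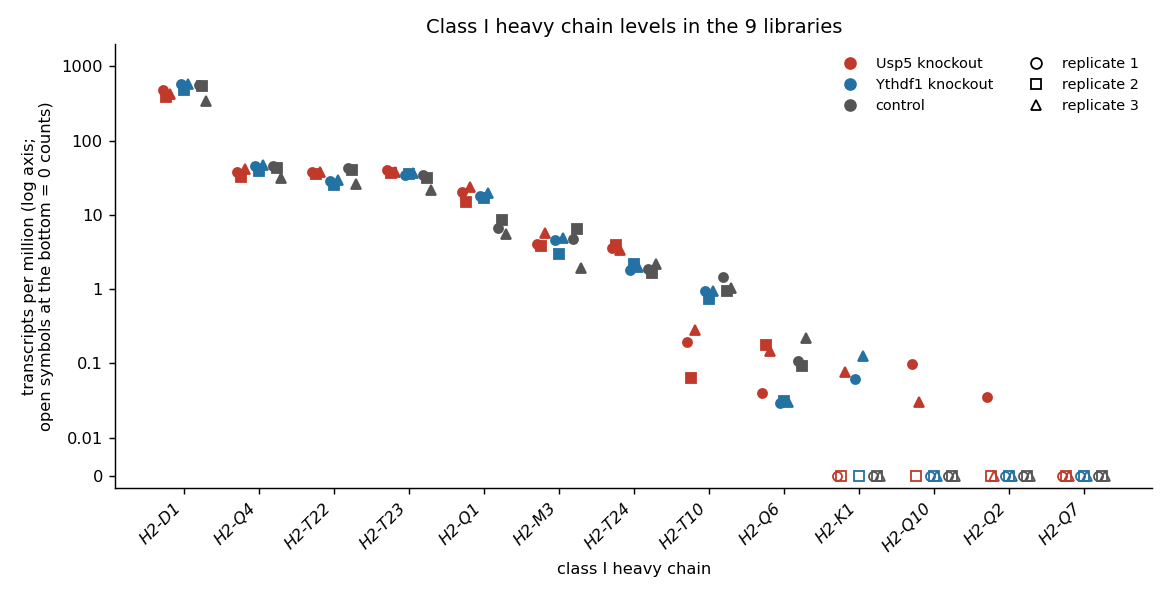
Levels of the 13 class I heavy chain genes in TPM (log axis) in each of the 9 libraries, with Usp5 knockout in red, Ythdf1 knockout in blue, control in grey and open symbols for 0 counts. H2-D1 lies above all others in every library, and H2-K1, H2-Q2, H2-Q6, H2-Q7 and H2-Q10 lie near or at 0.

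Antigen presentation genes were called in both directions in Usp5 knockout cells, and in Ythdf1 knockout cells those called were all higher with the main scaling. A call needed an adjusted p under 0.05 in edgeR's quasi-likelihood test with Benjamini-Hochberg adjustment, fitted over all 13661 tested genes. In Usp5 knockout cells 7 of the 31 tested members rose, 7 fell and 17 were not called, while 9.96% of all tested genes rose and 9.80% fell (19.8% called). In Ythdf1 knockout cells 14 rose, 0 fell and 17 were not called, while 23.7% of all tested genes rose and 22.8% fell (46.5% called). By unadjusted p under 0.05, 2 members were lower in Ythdf1 knockout cells, Erap1 and Rfxap; limma-voom called 0 lower and DESeq2 called 1. The median log2 fold change of the tested members was -0.03 in Usp5 knockout cells, with -0.01 over all genes, and 0.34 in Ythdf1 knockout cells, with 0.02 over all genes. Compared directly, 1 member was higher and 15 were lower in Usp5 knockout than in Ythdf1 knockout cells, with a median of -0.26 and 0.00 over all genes. Of all tested genes 23.3% were higher and 25.2% lower in that comparison (48.5% called). The comparisons with control share the 3 control libraries, so each is given beside the other and their likeness is not taken as a result.

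Scaling bears on the Ythdf1 count. With library sizes alone in place of TMM scaling, the median of all genes in Ythdf1 knockout cells was -0.12 in place of 0.02, 8 members rose and 2 fell. All genes then split into 2159 higher and 4185 lower, against 3231 higher and 3119 lower with TMM. In Usp5 knockout cells the split of all genes was 1026 higher and 1833 lower with library sizes alone, against 1361 and 1339 with TMM, and 5 members rose and 7 fell. Without control replicate 2 the Ythdf1 count of rises was 9, without Ythdf1 knockout replicate 1 it was 8, and without Ythdf1 knockout replicate 3 it was 9. Counts with each of the other libraries left out were 11 to 13. With trends on gene length and GC content removed, 10 members rose and 1 fell in Ythdf1 knockout cells, and 6 were higher and 10 lower in Usp5 knockout than in Ythdf1 knockout cells.

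**Figure D2:**
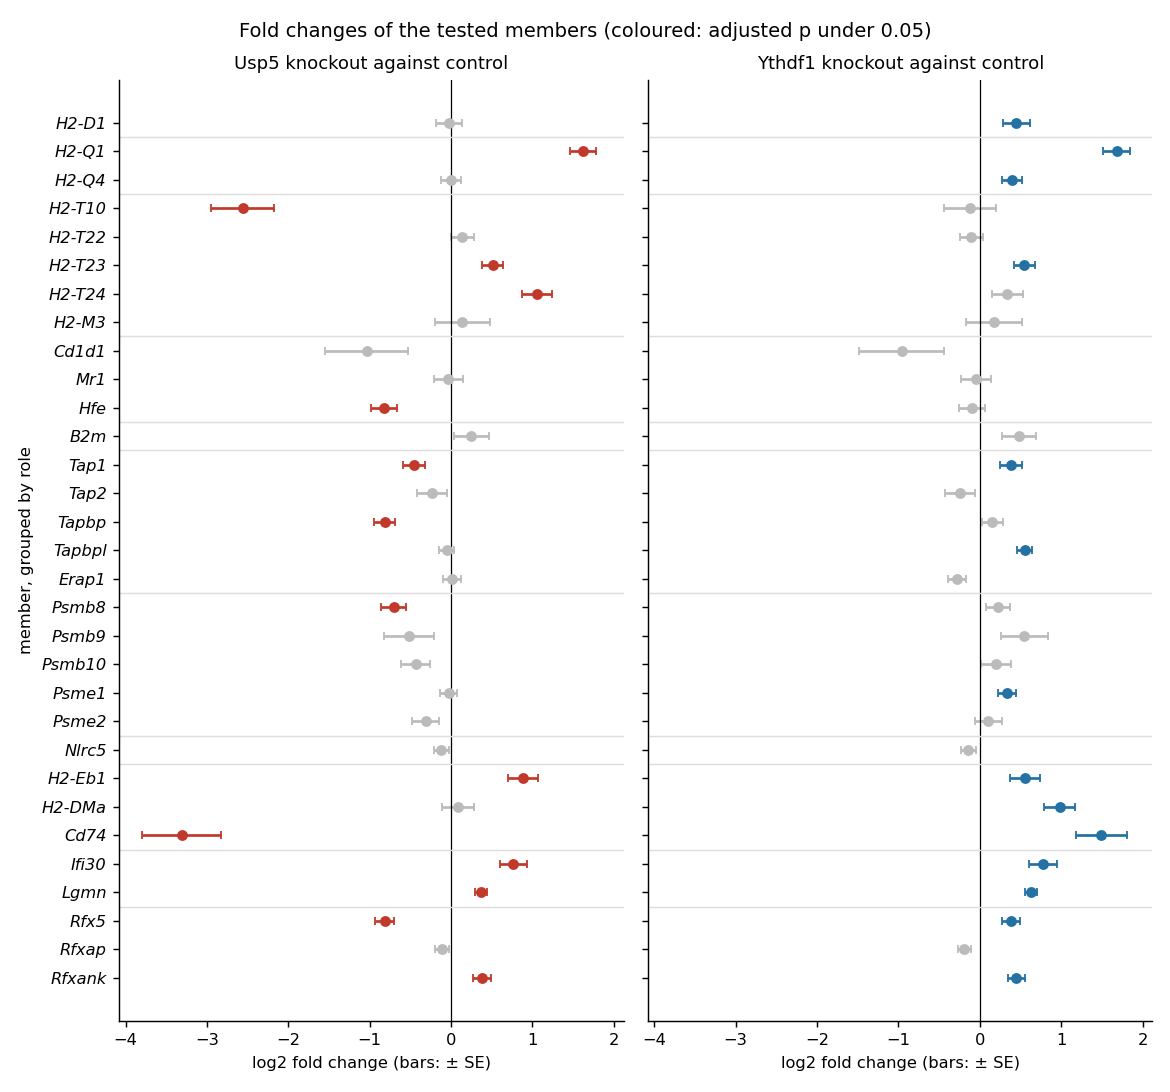
Log2 fold change with its standard error (bars) for the 31 tested genes in Usp5 knockout against control (left) and Ythdf1 knockout against control (right), grouped by role, coloured where the adjusted p was under 0.05. The right panel has 14 coloured points, all above 0, and the left panel has 7 on each side of 0, with Cd74 and H2-T10 farthest below it.

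Among the heavy chains, H2-D1 was not called in Usp5 knockout cells and was slightly raised in Ythdf1 knockout cells. H2-D1, a classical chain that presents peptides to CD8+ T cells, measured 517, 418 and 403 CPM in Usp5 knockout cells, 658, 536 and 661 CPM in Ythdf1 knockout cells and 517, 497 and 343 CPM in control cells. The Ythdf1 knockout values lay above all control values, while the Usp5 knockout values overlapped the controls, and control replicate 3 was the lowest of the 9. The fold change on the log2 scale was -0.02 ± 0.163, adjusted p = 0.941 in Usp5 knockout cells and 0.45 ± 0.163, adjusted p = 0.0435 in Ythdf1 knockout cells (edgeR, Benjamini-Hochberg). The direct difference was -0.47 ± 0.163, adjusted p = 0.0349, and stood at -0.40, with its call lost, when Usp5 knockout replicate 2 or 3 or Ythdf1 knockout replicate 1 or 3 was dropped. The Ythdf1 call was lost when any 1 of 7 libraries was left out, with values of 0.29 without control replicate 3, 0.52 without control replicate 2 and 0.37 without Ythdf1 knockout replicate 1 or 3. It stood at 0.41, 0.42 and 0.45 without Usp5 knockout replicates 1, 2 and 3, and the adjusted p over the 9 left-out fits ran between 0.0315 and 0.163. It was also lost with library sizes alone (0.30), with only the groups compared (0.41) and with length and GC trends removed (0.16), and the direct call with library sizes alone (-0.41) and with those trends removed (-0.18).

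H2-Q1, a Qa region chain, rose by about the same size in both knockouts. It measured 27.2, 20.1 and 28.5 CPM in Usp5 knockout cells, 26.0, 24.2 and 28.7 CPM in Ythdf1 knockout cells and 7.80, 9.73 and 6.96 CPM in control cells. All 6 knockout libraries lay above all 3 controls. Its change against control, in log2, was 1.62 ± 0.159, adjusted p = 7.67e-05 in Usp5 knockout cells and 1.68 ± 0.160, adjusted p = 3.54e-05 in Ythdf1 knockout cells, and the direct difference was -0.06 ± 0.152, adjusted p = 0.777 (edgeR, Benjamini-Hochberg). Of the 8 tested heavy chain members it had the largest rise in both comparisons, and its call held under all 20 alternatives in both. H2-Q4 measured 38.5, 33.3 and 37.4 CPM in Usp5 knockout cells, 50.2, 41.9 and 51.3 CPM in Ythdf1 knockout cells and 40.2, 38.1 and 30.4 CPM in control cells. Its Usp5 knockout values overlapped the controls, and its Ythdf1 knockout values lay just above them. For H2-Q4 the log2 fold change was 0.00 ± 0.122, adjusted p = 0.990 in Usp5 knockout cells and 0.40 ± 0.122, adjusted p = 0.0217 in Ythdf1 knockout cells (edgeR, Benjamini-Hochberg). That rise lost its call without Ythdf1 knockout replicate 1 (0.33) and without replicate 3 (0.31), and also with library sizes alone (0.25), with only the groups compared (0.36) and with length and GC trends removed (0.14). Of the 31-base words of H2-Q4, 47% occur in no other gene, so its counts can be shared with H2-Q6 and other Qa genes.

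The T region chains went separate ways. H2-T10, a non-classical chain known as a ligand of gamma-delta T cells, fell in Usp5 knockout cells. It measured 0.211, 0.0700 and 0.270 CPM in Usp5 knockout cells, 1.11, 0.842 and 1.10 CPM in Ythdf1 knockout cells and 1.38, 0.882 and 1.05 CPM in control cells. The 3 Usp5 knockout libraries lay below all 6 others, and Ythdf1 knockout overlapped control. On the log2 scale the change was -2.56 ± 0.389, adjusted p = 0.00131 in Usp5 knockout cells, -0.12 ± 0.319, adjusted p = 0.780 in Ythdf1 knockout cells and -2.44 ± 0.399, adjusted p = 7.28e-04 between the knockouts (edgeR, Benjamini-Hochberg). These rest on 18 counts in Usp5 knockout cells, 81 in Ythdf1 knockout cells and 126 in control cells. H2-T10 and its close copy H2-T22 share 47.6% of the 31-base words of H2-T10, so the split of reads between them is uncertain. H2-T22 itself measured 37.4, 35.7 and 33.4 CPM in Usp5 knockout cells, 31.3, 26.7 and 31.8 CPM in Ythdf1 knockout cells and 36.8, 34.8 and 24.7 CPM in control cells. It was not called in either knockout (log2 fold change 0.14 and adjusted p = 0.518 in Usp5 knockout cells, -0.10 and 0.570 in Ythdf1 knockout cells, by edgeR). Without control replicate 3 it was called lower in Ythdf1 knockout cells, at -0.26.

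H2-T23, the Qa-1 heavy chain that presents leader peptides to CD94/NKG2A receptors, rose in both knockouts. It measured 34.3, 31.9 and 29.4 CPM in Usp5 knockout cells, 31.9, 31.8 and 34.0 CPM in Ythdf1 knockout cells and 25.7, 23.5 and 17.6 CPM in control cells. No knockout library overlapped the controls, and control replicate 3 was again the lowest. The log2 fold change was 0.51 ± 0.128, adjusted p = 0.0189 in Usp5 knockout cells and 0.54 ± 0.128, adjusted p = 0.00596 in Ythdf1 knockout cells (edgeR, Benjamini-Hochberg). The Usp5 call was lost without Usp5 knockout replicate 1 (0.46) and without replicate 2 (0.51), with library sizes alone (0.42) and with only the groups compared (0.51). H2-T24 measured 4.37, 4.79 and 3.66 CPM in Usp5 knockout cells, 2.37, 2.83 and 2.57 CPM in Ythdf1 knockout cells and 2.00, 1.72 and 2.50 CPM in control cells. Usp5 knockout cells stood above both other groups, which overlapped. For H2-T24 the log2 fold change was 1.06 ± 0.183, adjusted p = 0.00284 in Usp5 knockout cells, 0.34 ± 0.189, adjusted p = 0.168 in Ythdf1 knockout cells and 0.72 ± 0.183, adjusted p = 0.00844 between the knockouts, where it was the only member called higher (edgeR, Benjamini-Hochberg). H2-M3, which presents formylated peptides of bacteria and mitochondria, measured 3.29, 3.11 and 4.05 CPM in Usp5 knockout cells, 3.96, 2.49 and 4.23 CPM in Ythdf1 knockout cells and 3.33, 4.50 and 1.45 CPM in control cells. Its control values were spread widely and overlapped both knockouts, with fold changes of 0.14 in Usp5 knockout and 0.17 in Ythdf1 knockout cells on the log2 scale and neither called.

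As a share of all heavy chain transcripts, H2-D1 gave 77.3%, 75.4% and 73.9% in Usp5 knockout cells, 81.1%, 79.7% and 80.4% in Ythdf1 knockout cells and 80.4%, 80.3% and 79.1% in control cells. The Usp5 knockout shares lay below all others. The summed heavy chain level was 572 ± 58.5 TPM in Usp5 knockout cells, 674 ± 64.0 TPM in Ythdf1 knockout cells and 600 ± 144 TPM in control cells (SD, n = 3), with overlap between all groups. Between any 1 pair of these groups of 3, an exact permutation test cannot reach 0.05, and none was run.

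The light chain B2m was the most abundant gene of the set on the TPM scale, and it was not called in either knockout with all libraries in and the main settings. B2m measured 695, 881 and 661 CPM in Usp5 knockout cells, 873, 925 and 831 CPM in Ythdf1 knockout cells and 488, 501 and 894 CPM in control cells. In both knockouts the values sat above control replicates 1 and 2, while control replicate 3 was as high as the knockout libraries. Its change against control, in log2, was 0.25 ± 0.213, adjusted p = 0.450 in Usp5 knockout cells and 0.48 ± 0.213, adjusted p = 0.0881 in Ythdf1 knockout cells (edgeR, Benjamini-Hochberg). Without control replicate 3, B2m was called higher in both, at 0.59 in Usp5 knockout cells and 0.82 in Ythdf1 knockout cells, with adjusted p = 0.00455 and 3.93e-04 (edgeR). With all 9 libraries in, B2m was also called higher in Ythdf1 knockout cells with no filter (0.44, adjusted p = 0.0210) and with length and GC trends removed (0.60, adjusted p = 0.0228, both by edgeR). In control replicate 3 the heavy chains and B2m went opposite ways: the ratio of B2m to summed heavy chain TPM was 2.30, 3.52 and 2.68 in Usp5 knockout cells, 2.38, 3.04 and 2.23 in Ythdf1 knockout cells, and 1.68, 1.79 and 4.57 in control cells. With the deposited effective lengths the ratio was 5.96, 9.11 and 6.92 in Usp5 knockout cells and 6.21, 7.93 and 5.83 in Ythdf1 knockout cells. In control cells it was then 4.38, 4.68 and 11.9, so its size depends on the length used. The part of the higher mitochondrial share of control replicate 3 in these values was not tested.

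**Figure D3:**
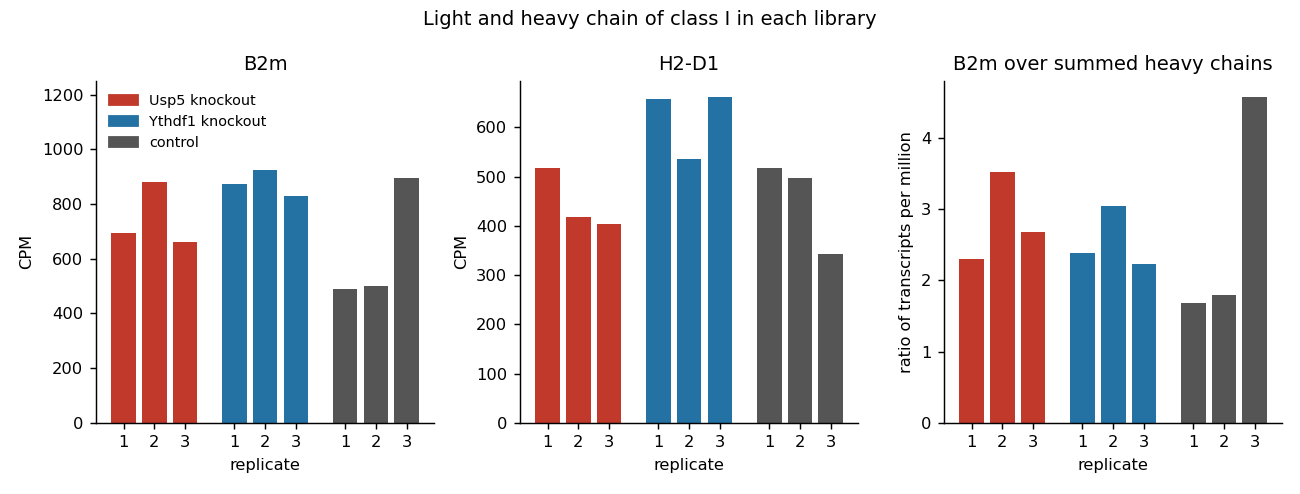
CPM of B2m (left) and H2-D1 (middle) and the ratio of B2m to the summed heavy chains on the TPM scale (right), 1 bar per library, with Usp5 knockout in red, Ythdf1 knockout in blue and control in grey. Control replicate 3 has the highest ratio, 4.57, and the lowest H2-D1 of the 9 libraries.

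The peptide-loading genes were lower in Usp5 knockout cells where they were called, and higher in Ythdf1 knockout cells where they were called. Of 5 tested, Tap1 and Tapbp fell in Usp5 knockout cells, and Tap1 and Tapbpl rose in Ythdf1 knockout cells. Over all tested genes 9.80% fell in Usp5 knockout and 23.7% rose in Ythdf1 knockout cells, and 5 genes are few to set against those shares. Tap1, a subunit of the peptide pump, measured 14.70, 12.98 and 14.29 CPM in Usp5 knockout cells, 25.68, 22.97 and 26.33 CPM in Ythdf1 knockout cells and 22.48, 19.64 and 15.30 CPM in control cells. Usp5 knockout cells were lowest, Ythdf1 knockout cells highest, and no group overlapped another. On the log2 scale the change was -0.46 ± 0.133, adjusted p = 0.0370 in Usp5 knockout cells, 0.38 ± 0.132, adjusted p = 0.0366 in Ythdf1 knockout cells and -0.84 ± 0.134, adjusted p = 6.36e-04 between the knockouts (edgeR, Benjamini-Hochberg). The comparisons with control were fragile. Over the fits with 1 library left out, the Usp5 value ran between -0.59 and -0.32 and lost its call in 7 of 9, at -0.32 and -0.44 with control replicates 1 and 2 left out, at -0.50, -0.41 and -0.47 with Usp5 knockout replicates 1, 2 and 3 left out, and at -0.46 with Ythdf1 knockout replicate 1 or 3 left out. The Ythdf1 value ran between 0.25 and 0.51 and lost its call in 7 of 9, at 0.40 and 0.25 with control replicates 2 and 3 left out, at 0.33, 0.40 and 0.31 with Ythdf1 knockout replicates 1, 2 and 3 left out, and at 0.34 and 0.35 with Usp5 knockout replicates 1 and 2 left out. The direct difference was called in each of these 9. The Usp5 call was also lost with only the groups compared (-0.46), and the Ythdf1 call with that setting (0.34), with library sizes alone (0.23), with no filter (0.33) and with length and GC trends removed (0.21).

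Tapbp, which encodes tapasin, the bridge between TAP and the empty heavy chain, measured 25.3, 19.8 and 22.9 CPM in Usp5 knockout cells, 46.6, 39.0 and 47.7 CPM in Ythdf1 knockout cells and 44.2, 41.6 and 34.0 CPM in control cells. The 3 Usp5 knockout libraries lay below the other 6. Its log2 fold change was -0.82 ± 0.130, adjusted p = 0.00173 in Usp5 knockout cells, 0.15 ± 0.128, adjusted p = 0.354 in Ythdf1 knockout cells and -0.97 ± 0.131, adjusted p = 2.23e-04 between the knockouts (edgeR, Benjamini-Hochberg). Tapbpl, which encodes TAPBPR, a peptide editor that works apart from the loading complex, measured 14.2, 13.9 and 13.7 CPM in Usp5 knockout cells, 21.3, 19.2 and 23.3 CPM in Ythdf1 knockout cells and 13.7, 14.9 and 14.9 CPM in control cells. Ythdf1 knockout cells stood above the rest, and the Usp5 knockout values overlapped control. For Tapbpl the log2 fold change was -0.06 ± 0.0936, adjusted p = 0.717 in Usp5 knockout cells, 0.55 ± 0.0931, adjusted p = 9.41e-04 in Ythdf1 knockout cells and -0.61 ± 0.0936, adjusted p = 5.02e-04 between the knockouts (edgeR, Benjamini-Hochberg). Tap2, the partner of Tap1 in the pump, measured 6.34, 4.09 and 4.85 CPM in Usp5 knockout cells, 5.37, 5.05 and 4.87 CPM in Ythdf1 knockout cells and 6.60, 6.57 and 4.79 CPM in control cells and was not called in either (log2 fold change -0.23 in Usp5 knockout and -0.24 in Ythdf1 knockout cells). Erap1, the aminopeptidase that trims peptides in the endoplasmic reticulum, was at 0.01 in Usp5 knockout cells. In Ythdf1 knockout cells it was at -0.28, with an adjusted p of 0.0612 by edgeR, and it was called lower without Ythdf1 knockout replicate 2 (-0.39) and without Usp5 knockout replicate 1 (-0.31), as well as with library sizes alone (-0.42), DESeq2 (-0.29), no filter (-0.33) and only the groups compared (-0.32).

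**Figure D4:**
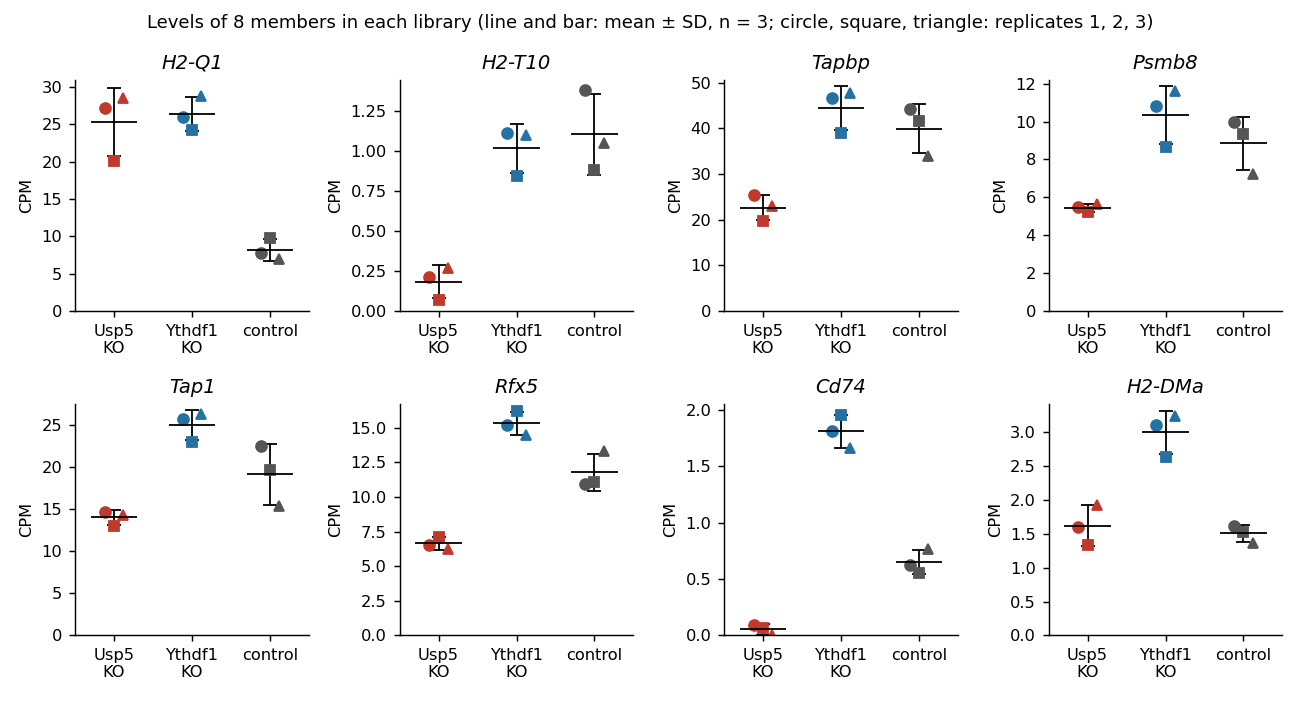
CPM of 8 members in each library, with lines and bars for mean ± SD (n = 3) and circle, square and triangle for replicates 1, 2 and 3, ordered Usp5 knockout, Ythdf1 knockout, control in each panel. Usp5 knockout cells are lowest for H2-T10, Tapbp, Psmb8, Tap1, Rfx5 and Cd74, both knockouts exceed control for H2-Q1, and Ythdf1 knockout cells exceed the rest for Cd74 and H2-DMa.

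Most immunoproteasome genes were lower in Usp5 knockout than in Ythdf1 knockout cells with the main settings. Of the 5 genes, 1 fell in Usp5 knockout cells (Psmb8) and 1 rose in Ythdf1 knockout cells (Psme1), and 4 were lower in Usp5 knockout than in Ythdf1 knockout cells, where 25.2% of all tested genes were lower. With length and GC trends removed, 2 of these 4 kept their direct call, Psmb8 and Psmb9, while Psmb10 stood at -0.24 and Psme1 at 0.04. Psmb8, the chymotrypsin-like catalytic subunit induced by interferon-gamma, measured 5.47, 5.21 and 5.66 CPM in Usp5 knockout cells, 10.8, 8.65 and 11.6 CPM in Ythdf1 knockout cells and 9.96, 9.33 and 7.25 CPM in control cells. Usp5 knockout cells lay below all other libraries. Its log2 fold change was -0.71 ± 0.151, adjusted p = 0.00918 in Usp5 knockout cells, 0.22 ± 0.148, adjusted p = 0.250 in Ythdf1 knockout cells and -0.92 ± 0.152, adjusted p = 7.59e-04 between the knockouts (edgeR, Benjamini-Hochberg). Psmb9, the subunit encoded beside Tap1, measured 1.03, 0.735 and 0.925 CPM in Usp5 knockout cells, 1.78, 1.99 and 1.93 CPM in Ythdf1 knockout cells and 1.65, 1.46 and 0.684 CPM in control cells. Its control values were spread over the range of the Usp5 knockout values, with control replicate 3 lowest. For Psmb9 the log2 fold change was -0.52 ± 0.303, adjusted p = 0.259 in Usp5 knockout cells, 0.55 ± 0.290, adjusted p = 0.145 in Ythdf1 knockout cells and -1.07 ± 0.303, adjusted p = 0.0151 between the knockouts (edgeR, Benjamini-Hochberg). The direct difference of Psmb9 missed the threshold without Usp5 knockout replicate 2 (-0.91, adjusted p = 0.0653 by edgeR) and without Ythdf1 knockout replicate 3 (-1.03). Without control replicate 3, Psmb9 (-0.78), Psmb10 (-0.58) and Psme2 (-0.48) were also called lower in Usp5 knockout than in control cells.

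Psmb10, the remaining inducible catalytic subunit, was at -0.44 in Usp5 knockout and 0.20 in Ythdf1 knockout cells, neither called, and at -0.64 ± 0.183, adjusted p = 0.0157 between the knockouts (edgeR). That direct call was lost in 4 of 9 fits with 1 library left out, with values of -0.58 and -0.57 where Usp5 knockout replicates 2 and 3 were dropped, and -0.54 and -0.50 where Ythdf1 knockout replicates 1 and 3 were dropped. Psme1, the alpha subunit of the PA28 activator, measured 46.6, 47.6 and 37.9 CPM in Usp5 knockout cells, 58.0, 50.3 and 61.6 CPM in Ythdf1 knockout cells and 47.0, 44.3 and 43.6 CPM in control cells. Usp5 knockout and control overlapped, and Ythdf1 knockout lay above both. Its log2 fold change was -0.03 ± 0.107, adjusted p = 0.873 in Usp5 knockout cells and 0.33 ± 0.107, adjusted p = 0.0269 in Ythdf1 knockout cells (edgeR, Benjamini-Hochberg). With trends on gene length and GC content removed, the Ythdf1 value of Psme1 was -0.05, and its call was lost with library sizes alone (0.19) and with no filter (0.28). It also lost its call without control replicate 2 (0.32) or 3 (0.31) and without Ythdf1 knockout replicate 1 (0.28) or 3 (0.24). Psme2, the beta subunit, was not called in either knockout.

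The ratio of the summed levels of Psmb8, Psmb9 and Psmb10 to those of the constitutive subunits they replace (Psmb5, Psmb6 and Psmb7) was 0.0887, 0.0991 and 0.109 in Usp5 knockout cells, on the TPM scale. It was 0.123, 0.109 and 0.131 in Ythdf1 knockout cells and 0.125, 0.123 and 0.127 in control cells. Usp5 knockout cells lay below the controls, and Ythdf1 knockout cells overlapped them. Nlrc5, the class I transactivator, measured 30.4, 31.2 and 33.5 CPM in Usp5 knockout cells, 31.5, 29.4 and 32.9 CPM in Ythdf1 knockout cells and 37.0, 35.8 and 30.5 CPM in control cells. For Nlrc5 the log2 fold change was -0.12 ± 0.0932, adjusted p = 0.397 in Usp5 knockout cells and -0.14 ± 0.0935, adjusted p = 0.241 in Ythdf1 knockout cells, neither called (edgeR, Benjamini-Hochberg). Taken over the 12 tested genes of the light chain, loading, immunoproteasome and transactivator groups, 3 fell and 9 were not called in Usp5 knockout cells, and 3 rose and 9 were not called in Ythdf1 knockout cells. Over all tested genes 9.80% fell in Usp5 knockout and 23.7% rose in Ythdf1 knockout cells, so the share of rises lay near that of all genes. Between the knockouts 7 of these 12 were lower in Usp5 knockout cells, as were 25.2% of all genes.

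Of 3 class I-like molecules encoded outside the MHC, 1 fell in Usp5 knockout cells, and none was called in Ythdf1 knockout cells by edgeR at an adjusted or unadjusted p under 0.05. Hfe, which binds the transferrin receptor and takes part in iron sensing, measured 1.86, 1.71 and 1.89 CPM in Usp5 knockout cells, 3.40, 2.57 and 3.10 CPM in Ythdf1 knockout cells and 3.13, 3.20 and 3.38 CPM in control cells. The 3 Usp5 knockout values lay below all others. Its log2 fold change was -0.83 ± 0.160, adjusted p = 0.00524 in Usp5 knockout cells, -0.10 ± 0.156, adjusted p = 0.637 in Ythdf1 knockout cells and -0.73 ± 0.162, adjusted p = 0.00425 between the knockouts (edgeR, Benjamini-Hochberg). Cd1d1, which presents lipids to natural killer T cells, had 48 counts in Usp5 knockout cells, 40 in Ythdf1 knockout cells and 108 in control cells. Its log2 fold changes of -1.04 ± 0.510, adjusted p = 0.181 in Usp5 knockout and -0.96 ± 0.520, adjusted p = 0.154 in Ythdf1 knockout cells did not pass (edgeR), and the groups overlapped. Mr1, which presents vitamin B metabolites to MAIT cells, was at -0.03 in Usp5 knockout and -0.05 in Ythdf1 knockout cells, neither called.

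Of the class II genes, Cd74, Ciita, H2-Aa, H2-Ab1 and H2-DMb1 were scarce in all groups, H2-Eb1 was not, and the invariant chain Cd74 went opposite ways in the knockouts. Cd74 had 4, 2 and 0 counts in Usp5 knockout cells, 49, 51 and 44 counts in Ythdf1 knockout cells and 28, 24 and 19 counts in control cells. In CPM this was 0.0939, 0.0700 and 0 CPM in Usp5 knockout cells, 1.81, 1.95 and 1.66 CPM in Ythdf1 knockout cells and 0.622, 0.557 and 0.765 CPM in control cells, and no group overlapped another. The fitted log2 fold change was -3.31 ± 0.483, adjusted p = 9.99e-04 in Usp5 knockout cells, 1.49 ± 0.314, adjusted p = 0.00323 in Ythdf1 knockout cells and -4.81 ± 0.446, adjusted p = 2.21e-05 between the knockouts (edgeR, Benjamini-Hochberg). The ratio of depth-scaled counts was 0.0982 in Usp5 knockout over control (exact 95% interval 0.0349 to 0.225) and 2.88 in Ythdf1 knockout over control (2.15 to 3.88), intervals that cover counting error only. These calls held under all 20 alternatives. At 1.81 CPM on average in its highest group, Cd74 stayed rare.

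Ciita, the class II transactivator, was near 0 in every group, with 2, 0 and 0 counts in Usp5 knockout cells, 1, 2 and 2 in Ythdf1 knockout cells and 0, 0 and 0 in control cells. Set against a floor of 3 counts over the control group, the 5 counts in Ythdf1 knockout cells give a 2.36-fold ratio. That value takes the 5 counts as exact, so it is not a lower bound. The class II chains H2-Aa and H2-Ab1 were under the filter, with 0 counts in Usp5 knockout cells, 0 in Ythdf1 knockout cells and 2 in control cells for H2-Aa, and with 21 counts in Usp5 knockout cells, 21 in Ythdf1 knockout cells and 28 in control cells for H2-Ab1. H2-DMb1, a beta chain of the peptide editor H2-M, had 4, 9 and 0 counts in Usp5 knockout cells, 0, 1 and 0 in Ythdf1 knockout cells and 27, 23 and 7 in control cells. Its depth-scaled ratio was 0.265 in Usp5 knockout over control (exact 95% interval 0.133 to 0.490) and 0.0249 in Ythdf1 knockout over control (6.19e-04 to 0.144), from 1 count against 57. Both intervals cover counting error only. Usp5 knockout replicate 2 (0.315 CPM) lay above control replicate 3 (0.282 CPM), so those groups overlapped. H2-DMb2, next to H2-DMb1 in the gene order, was at 0.0179 TPM in Usp5 knockout, 0.104 TPM in Ythdf1 knockout and 0 TPM in control cells. Whether the 2 genes share reads was not tested.

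H2-DMa, the alpha chain of the same editor, did not follow H2-DMb1. It measured 1.60, 1.33 and 1.93 CPM in Usp5 knockout cells, 3.11, 2.64 and 3.25 CPM in Ythdf1 knockout cells and 1.62, 1.53 and 1.37 CPM in control cells. Ythdf1 knockout cells stood above both other groups, which overlapped. Its log2 fold change was 0.09 ± 0.195, adjusted p = 0.784 in Usp5 knockout cells, 0.98 ± 0.190, adjusted p = 0.00206 in Ythdf1 knockout cells and -0.89 ± 0.192, adjusted p = 0.00350 between the knockouts (edgeR, Benjamini-Hochberg). H2-Eb1, a class II beta chain, measured 9.49, 9.17 and 6.43 CPM in Usp5 knockout cells, 7.70, 5.97 and 6.38 CPM in Ythdf1 knockout cells and 5.18, 4.57 and 3.78 CPM in control cells. All 6 knockout libraries exceeded the controls. H2-Eb1 had 833 counts in Usp5 knockout cells, 533 in Ythdf1 knockout cells and 524 in control cells. The class II gene H2-Ea, near it in the gene order, was at 0 TPM in every group. These transcript levels do not show whether a class II molecule was made. For H2-Eb1 the log2 fold change was 0.89 ± 0.182, adjusted p = 0.00729 in Usp5 knockout cells and 0.56 ± 0.184, adjusted p = 0.0296 in Ythdf1 knockout cells (edgeR, Benjamini-Hochberg). The Ythdf1 call was lost without control replicate 2 (0.56) or 3 (0.45) and without Ythdf1 knockout replicate 1 (0.41) or 3 (0.56), with library sizes alone (0.41) and with length and GC trends removed (0.29).

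Markers of leukocytes and antigen-presenting cells were low throughout. The 14 markers, of which 5 were tested, summed to 30.4 to 34.4 CPM in Usp5 knockout cells, 58.1 to 65.8 CPM in Ythdf1 knockout cells and 36.7 to 39.5 CPM in control cells. Cd3e and Tyrobp were at 0 in all 9 libraries, and Ptprc, which marks all leukocytes, had 2 to 7 counts in each. Cd14 made up most of the sum and was the only one of these markers called in either comparison with control, with 47.2, 42.4 and 50.3 CPM in Ythdf1 knockout cells and 26.4, 25.6 and 20.9 CPM in control cells (log2 fold change 0.94, adjusted p = 1.53e-04, edgeR). Cd14 (-1.11) and Cd68 (-0.98) were called lower in Usp5 knockout than in Ythdf1 knockout cells. The part of these markers in the class II values was not tested, and in bulk samples fewer cells of a type and less RNA per cell cannot be told apart.

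Of the 3 lysosomal members that prepare peptides for class II, the 2 tested, Ifi30 and Lgmn, rose in both knockouts. Over all tested genes 9.96% rose in Usp5 knockout and 23.7% in Ythdf1 knockout cells. Among endolysosomal genes outside the members, given further below, Ctsh and Sppl2a were lower in both knockouts and Ctsz was higher in both. Ifi30, which encodes the thiol reductase GILT, measured 69.3, 53.1 and 44.6 CPM in Usp5 knockout cells, 58.4, 53.5 and 56.2 CPM in Ythdf1 knockout cells and 37.3, 34.9 and 25.8 CPM in control cells. Lgmn, the asparagine-specific protease legumain, measured 88.5, 88.8 and 85.9 CPM in Usp5 knockout cells, 104, 108 and 102 CPM in Ythdf1 knockout cells and 68.1, 62.6 and 72.8 CPM in control cells. For both genes no knockout library overlapped the controls. For Ifi30 the log2 fold change was 0.77 ± 0.168, adjusted p = 0.0102 in Usp5 knockout cells and 0.77 ± 0.169, adjusted p = 0.00392 in Ythdf1 knockout cells (edgeR, Benjamini-Hochberg). That of Lgmn was 0.37 ± 0.0735, adjusted p = 0.00598 in Usp5 knockout cells, 0.63 ± 0.0737, adjusted p = 1.17e-04 in Ythdf1 knockout cells and -0.26 ± 0.0733, adjusted p = 0.0142 between the knockouts (edgeR, Benjamini-Hochberg). Lgmn lost its direct call when Usp5 knockout replicate 2 (-0.24) or Ythdf1 knockout replicate 1 (-0.24) or 2 (-0.21) was left out, with no filter (-0.22) and with length and GC trends removed (-0.09). Ctss, the cathepsin that degrades the invariant chain in antigen-presenting cells, had 0 counts in Usp5 knockout cells, 10 in Ythdf1 knockout cells and 3 in control cells.

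Of the 3 RFX subunits that hold the shared promoter complex together, Rfx5 moved apart in the knockouts. Rfx5 measured 6.55, 7.14 and 6.24 CPM in Usp5 knockout cells, 15.2, 16.2 and 14.5 CPM in Ythdf1 knockout cells and 10.9, 11.1 and 13.3 CPM in control cells. Usp5 knockout cells lay lowest, Ythdf1 knockout cells highest, and no group overlapped another. The fold change on the log2 scale was -0.82 ± 0.113, adjusted p = 7.17e-04 in Usp5 knockout cells, 0.39 ± 0.110, adjusted p = 0.0150 in Ythdf1 knockout cells and -1.20 ± 0.113, adjusted p = 2.40e-05 between the knockouts (edgeR, Benjamini-Hochberg). The Ythdf1 call was lost without control replicate 1 (0.33) or 2 (0.35) and without Ythdf1 knockout replicate 1 (0.36) or 2 (0.31), with library sizes alone (0.25) and with no filter (0.34). Rfxank measured 19.07, 17.43 and 15.49 CPM in Usp5 knockout cells, 18.25, 17.00 and 19.27 CPM in Ythdf1 knockout cells and 12.63, 12.96 and 14.49 CPM in control cells. Both knockouts exceeded the controls. Its log2 fold change was 0.38 ± 0.105, adjusted p = 0.0291 in Usp5 knockout cells and 0.45 ± 0.105, adjusted p = 0.00593 in Ythdf1 knockout cells (edgeR, Benjamini-Hochberg). The Usp5 call of Rfxank was lost when control replicate 1 (0.34) or 2 (0.36) or Usp5 knockout replicate 1 (0.30) or 2 (0.38) was left out, with library sizes alone (0.30) and with only the groups compared (0.37). Rfxap was at -0.11 in Usp5 knockout and -0.19 in Ythdf1 knockout cells, neither called with the main settings. It was called lower in Ythdf1 knockout cells with library sizes alone (-0.33), with only the groups compared (-0.23) and with length and GC trends removed (-0.33).

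Taken by gene rather than by role, 6 members were called higher in both knockouts (H2-Q1, H2-T23, H2-Eb1, Ifi30, Lgmn and Rfxank). A further 3 were lower in Usp5 knockout and higher in Ythdf1 knockout cells (Tap1, Cd74 and Rfx5), 4 were lower in Usp5 knockout cells and not called in Ythdf1 knockout cells (H2-T10, Hfe, Tapbp and Psmb8), and H2-T24 was higher in Usp5 knockout cells and not called in the other. The remaining calls were the 5 raised in Ythdf1 knockout cells and not called in Usp5 knockout cells (H2-D1, H2-Q4, Tapbpl, Psme1 and H2-DMa), and 12 tested members were called in neither. Over all tested genes 9.96% rose and 9.80% fell in Usp5 knockout cells, and 23.7% rose and 22.8% fell in Ythdf1 knockout cells. All genes were not sorted into these joint classes, so whether the member counts are unusual cannot be said. Since both comparisons rest on the same controls, these counts describe the calls and are not a test of likeness.

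Further genes around antigen presentation were read from lists of 90 genes, of which 79 were in the table and 60 were tested. These were regulators of MHC genes, folding chaperones, constitutive proteasome subunits, endolysosomal genes, other MHC and class I-like genes and NKG2D ligands. In Usp5 knockout cells 6 of the 60 rose and 12 fell, and in Ythdf1 knockout cells 15 rose and 14 fell. Over all tested genes 9.96% rose and 9.80% fell in Usp5 knockout cells, and 23.7% rose and 22.8% fell in Ythdf1 knockout cells, so apart from the falls in Usp5 knockout cells these shares lay near those of all genes. The lists that follow are small, and their counts are to be read against the same shares. Of 4 NF-kB factors that act at class I promoters, 3 fell in Usp5 knockout cells, among them Relb, the partner of the non-canonical pathway (22.4 CPM in Usp5 knockout, 52.5 CPM in control cells, log2 fold change -1.23, adjusted p = 3.31e-04, edgeR) and its partner Nfkb2 (-0.71, adjusted p = 0.00282, edgeR). In Ythdf1 knockout cells Rela, the main transactivating subunit, rose (286 CPM in Ythdf1 knockout, 168 CPM in control cells, log2 fold change 0.77, adjusted p = 5.83e-04, edgeR) and Nfkb1 fell (-0.30).

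Of 13 interferon-gamma signalling genes, 3 rose and 3 fell in Usp5 knockout cells and 1 rose and 2 fell in Ythdf1 knockout cells. Ifngr2, the signalling chain of the receptor, fell in Usp5 knockout cells (20.8 CPM in Usp5 knockout, 40.7 CPM in control cells, log2 fold change -0.97, adjusted p = 3.87e-05, edgeR), as did the feedback inhibitor Socs3 (-0.88), while the inhibitor Socs1 (0.86) and the transcription factor Irf8 (0.56) rose. Jak2, the kinase of that chain, fell in Ythdf1 knockout cells (81.3 CPM in Ythdf1 knockout, 194 CPM in control cells, log2 fold change -1.25, adjusted p = 3.39e-05, edgeR), with Socs3 (-0.33) lower and Irf8 (0.29) higher. Irf1, a transcription factor through which interferon-gamma induces class I, was not called in either knockout.

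The endoplasmic reticulum chaperones of class I folding were mostly not called, with 2 of 10 called in Usp5 knockout cells and 3 in Ythdf1 knockout cells. Calr, calreticulin, was higher in Usp5 knockout (0.26, adjusted p = 0.0477) and Ythdf1 knockout cells (0.52, adjusted p = 6.84e-04, both by edgeR), and Canx, calnexin, was lower in both (-0.27 in Usp5 knockout and -0.39 in Ythdf1 knockout cells). Hspa5, the chaperone BiP, also rose in Ythdf1 knockout cells (0.30). Among constitutive proteasome genes, Psme4 fell in Usp5 knockout (-0.37) and Ythdf1 knockout cells (-0.97), and Psmb5 rose in Ythdf1 knockout cells (0.56). Of the other promoter factors, Crebbp rose in Usp5 knockout cells (0.69), and in Ythdf1 knockout cells Nfyc rose (0.80) while Kat2b (-0.95) and Suz12 (-0.65) were among 3 that fell.

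Of 10 tested endolysosomal genes, 1 rose and 2 fell in Usp5 knockout cells, and 6 rose and 3 fell in Ythdf1 knockout cells, against 19.8% of all tested genes called in Usp5 knockout and 46.5% in Ythdf1 knockout cells. Ctsz rose in Usp5 knockout (0.46) and Ythdf1 knockout cells (0.66), and Ctsb rose in Ythdf1 knockout cells (0.51). Sppl2a, the intramembrane protease that clears the last fragment of CD74, was lower in Usp5 knockout (-0.49) and Ythdf1 knockout cells (-0.99), and the protease Ctsh was lower in both (-1.31 in Usp5 knockout and -0.77 in Ythdf1 knockout cells). Among other MHC genes, H2-Bl rose in Ythdf1 knockout cells, with 4.48, 2.95 and 3.40 CPM in Ythdf1 knockout cells and 1.07, 0.952 and 0.644 CPM in control cells (log2 fold change 1.99, adjusted p = 4.59e-04, edgeR). In the same list Procr rose (0.59) and Azgp1 fell (-0.91) in Ythdf1 knockout cells, but neither is in the gene order from Tapbp to H2-M3. Of the NKG2D ligands, which mark stressed cells for natural killer cells, Ulbp1 was lower in Usp5 knockout (-0.29) and Ythdf1 knockout cells (-0.35). Raet1d had 0 counts in Usp5 knockout cells, 1 in Ythdf1 knockout cells and 54 in control cells.

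Of the 41 genes, 23 lie on mouse chromosome 17 in the MHC. From Tapbp to H2-M3 the order of genes holds 307 genes of the table, of which 109 were tested. In control cells H2-D1, at 481 TPM, stood above every other member of the interval, H2-Q4 near it was at 39.8 TPM, and H2-K1, on the far side of the class II genes, was at 0.

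**Figure D5:**
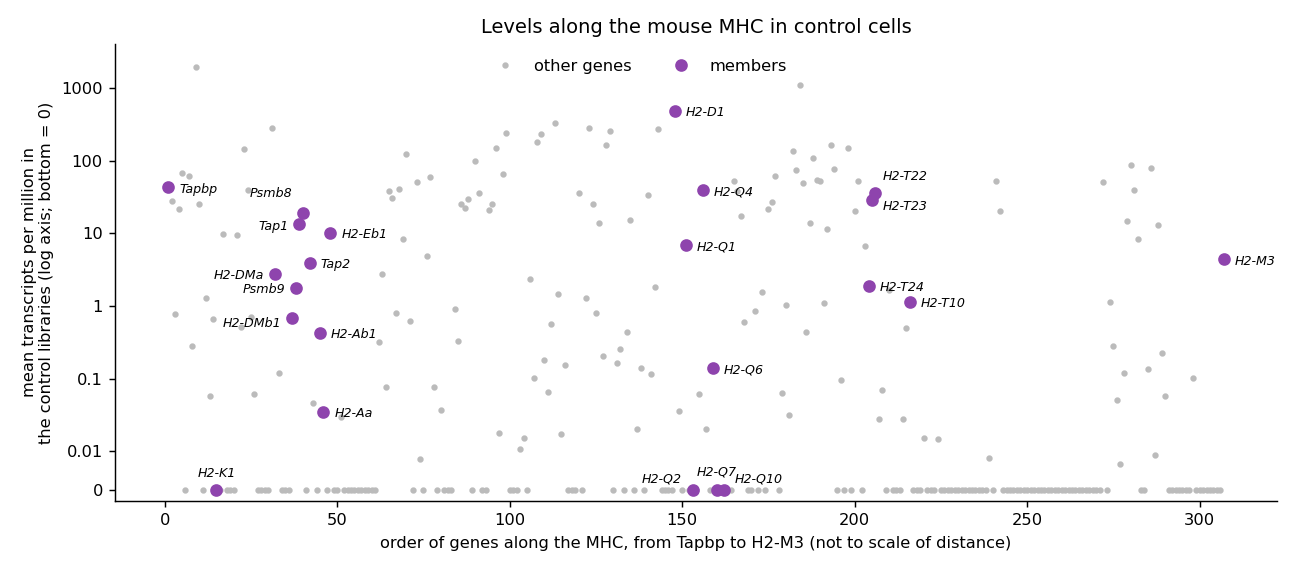
Mean TPM in control libraries (log axis, 0 at the bottom) of the 307 genes between Tapbp and H2-M3 against their order on chromosome 17, with the 23 members in purple and other genes in grey. H2-D1 has the highest level of the members, and H2-K1, H2-Q2, H2-Q7 and H2-Q10 sit at 0.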

How the data were processed

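Total RNA of 9 Hepa 1-6 samples was made into mRNA-seq libraries, per the labels' protocols. The values deposited by the authors are estimated counts, given as whole numbers and not rounded again here; a Length and an EffectiveLength stand beside them. What EffectiveLength stands for is not explained. fastp 0.23.2, STAR 2.7.10a, Salmon 1.9.0 and the build GRCm39 come from the submitters' processing notes, which name no role or order for them. Annotation release and strand use are not stated, so near-identical or overlapping genes may share reads.

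Samples were grouped by their titles. Nothing in the labels marks replicates as separate cultures or clones, and p-values reflect spread that may be technical only. The members and lists were chosen with earlier results of these data known. The main test was edgeR 4.0.16 under R 4.3.3 (TMM, filterByExpr, glmQLFit and glmQLFTest, all 9 samples, group as the only term), with Benjamini-Hochberg adjustment over 13661 genes. CPM uses TMM-scaled library sizes, and TPM uses the deposited Length. A fold change is given as log2 ± its standard error. Libraries held 24760877 to 42989715 counts. Intervals and floors (3 counts) cover counting error only, and a floor covers that of the group with 0 counts alone. Values in every sample are given for expressed heavy chains, central class I and II genes and members called against control; in other lists, for up to 2 called genes per direction. The test was tried on simulated counts with 200 changed genes. Other settings tried were DESeq2 1.42.0, limma-voom (limma 3.58.1), RLE scaling or none beyond library sizes, 2 other filters, fits of the compared groups alone, stricter thresholds, a block on the replicate number, removal of trends on length and GC content, and each sample left out in turn. Promoters are RefSeq's for GRCm38.p6, matched by symbol for 30 of 41 members; no coordinates of that build were set against the counts. Same-numbered samples of different groups did not deviate together (correlations of -0.26 to 0.30), so they were not treated as pairs.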

Additional observations from a re-analysis of the deposited data

Results flagged for a closer look

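The direct comparison of the knockouts differed for 3 genes that were called in opposite directions against the shared controls. Cd74, the class II invariant chain, differed by -4.81 on the log2 scale between Usp5 knockout and Ythdf1 knockout cells, from 6 counts in Usp5 knockout cells, 144 in Ythdf1 knockout cells and 71 in control cells. Rfx5, the DNA-binding subunit of the RFX complex, differed by -1.20, and Tap1, the peptide pump subunit, by -0.84. Of these, Cd74 kept its calls in both comparisons with control when any 1 library was left out. Rfx5 kept its Usp5 call and lost its Ythdf1 call in 4 of the 9 such fits. Tap1 lost its Usp5 call in 7 of the 9 and its Ythdf1 call in 7 of the 9, and kept its direct call in all 9.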

How the results depend on the processing

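Each of the 31 tested members was refitted under 20 alternatives per comparison, except Cd1d1, which had 19. Of 619 values in Usp5 knockout against control, 580 kept their side of the threshold, 33 lost a call and 6 gained one. Values kept include those of uncalled members that changed sign without a call, as H2-Q4 did in 11 of its 20 alternatives there. In Ythdf1 knockout against control 543 of 619 kept theirs, 62 lost a call, 13 gained one and 1 reversed. Between the knockouts 553 of 619 kept theirs, 44 lost a call, 19 gained one and 3 reversed. All reversals came with trends on gene length and GC content removed: Psme1 stood at -0.05 in Ythdf1 knockout against control, and between the knockouts H2-T23 stood at 0.28, Psme1 at 0.04 and Ifi30 at 0.31. The cause was not tested.

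The counts of called members moved as follows, from 7 higher and 7 lower in Usp5 knockout, 14 and 0 in Ythdf1 knockout, and 1 and 15 in Usp5 against Ythdf1 knockout. Library sizes alone gave 8 higher and 2 lower in Ythdf1 knockout cells, and 2 higher between the knockouts. RLE scaling, DESeq2 and the stricter filter each gave 2 higher between the knockouts, and DESeq2 gave 1 lower in Ythdf1 knockout cells. No filter, and a fit of only the groups compared, each gave 2 lower in Ythdf1 knockout cells and 3 higher between the knockouts. Removing length and GC trends gave 10 higher and 1 lower in Ythdf1 knockout cells, and 6 higher and 10 lower between the knockouts. An adjusted p under 0.01 left 4 higher in Usp5 knockout cells, 8 higher in Ythdf1 knockout cells and 9 lower between the knockouts. A fold of at least 2 left 2 higher and 2 lower in Usp5 knockout cells, 2 higher in Ythdf1 knockout cells, and 0 higher and 4 lower between the knockouts. Leaving out 1 library at a time gave 5 to 8 higher and 6 to 10 lower in Usp5 knockout cells, 8 to 13 higher and 0 to 2 lower in Ythdf1 knockout cells, and 1 to 3 higher and 10 to 16 lower between the knockouts. With the replicate number as a block, the counts were 6 higher and 7 lower in Usp5 knockout cells, 14 and 0 in Ythdf1 knockout cells, and 1 and 15 between the knockouts, with the Usp5 call of Rfxank (0.38, adjusted p = 0.0527 by edgeR with Benjamini-Hochberg adjustment) the one lost among those rises, and the numbers showed no pairing of samples.

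The 8 heavy chains above the filter also passed 1 CPM and 1 TPM; with the effective lengths 7 passed 1 TPM, as H2-T10 then reached 0.863. Genes under the filter are limited by counting error. Control replicate 3 had the lowest depth; B2m was called higher in both knockouts without it, and in Ythdf1 knockout cells also with no filter and with length and GC trends removed.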
